A study of Mus musculus with 464 samples.

Results

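The genes described here are 8 transcription factor genes that mark visceral motor neurons and V2 interneurons: Phox2a, Tbx20, Foxn4, Vsx1, Gata2, Gata3, Tal1 and Sox14. They were chosen by name, all 8 are listed among the 21973 genes measured, and they were followed through all cells kept after filtering, which removed 6 cells. The cells came from R1, an established mouse embryonic stem cell line grown with serum replacement and LIF. Embryoid bodies were made by the hanging drop method (48 hours) and then kept in retinoic acid for 4 days, at a dose that the labels give as 0.5 mM. Cell capture used the Fluidigm C1, and the cDNA chemistry was SMART-Seq V4, which reads full-length transcripts. The samples share 1 treatment label, which names neither untreated cells nor separate cultures, so the cells form 1 sample, no p-value is given, and intervals are exact Clopper-Pearson 95% intervals that cover counting error only.

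Along the ventral neural tube, bands of progenitor cells give rise to separate classes of neurons. The p2 band makes V2 interneurons: Foxn4 acts in its progenitors, where it promotes Notch signalling between sister cells, and Vsx1 marks a brief precursor stage. The sister cells then part into V2a neurons, which are excitatory and carry Sox14, and V2b neurons, which are inhibitory and carry Gata2, Gata3 and Tal1. In blood cells GATA factors and TAL1 bind DNA within 1 complex. Visceral and branchial motor neurons of the hindbrain carry Phox2a, and Tbx20 acts in these motor neurons and in the heart.

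Gata2 with Gata3 and Gata2 with Tal1 were the member pairs found in the most cells, and the RefSeq sequences before the starts of Gata2 and Tal1 (build GRCm38.p6) are shown for that reason. Each is the 250 bases upstream of the gene's first listed start, 5′ to 3′ on the gene's own strand, with every GATA and its reverse complement TATC in capitals. The Gata2 window is chr6:88193641-88193890 and the Tal1 window is chr4:115056176-115056425, both on the plus strand.
Gata2: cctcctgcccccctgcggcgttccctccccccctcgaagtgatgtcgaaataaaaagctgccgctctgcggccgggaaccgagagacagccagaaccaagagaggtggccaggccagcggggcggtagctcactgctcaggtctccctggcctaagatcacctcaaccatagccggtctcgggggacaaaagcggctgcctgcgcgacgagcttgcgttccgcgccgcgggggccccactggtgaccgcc
Tal1: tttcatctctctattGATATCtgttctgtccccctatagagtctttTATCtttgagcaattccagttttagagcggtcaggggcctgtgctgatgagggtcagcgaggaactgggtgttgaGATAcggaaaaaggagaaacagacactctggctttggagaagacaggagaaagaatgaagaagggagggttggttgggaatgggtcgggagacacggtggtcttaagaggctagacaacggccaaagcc
The Tal1 window held 4 matches to GATA counted over both strands, of which 2 overlap in a palindrome, and the Gata2 window held 0. The Tal1 window also held 1 match to a longer motif, CTG followed after 8 bases of any kind by GATA. Over the 32851 RefSeq windows of this length, 53.6% held GATA and 1.91% held the longer motif on either strand. The windows before the other listed starts of Gata2 and Tal1, and the 1 window listed for Gata3, held 0 matches to either motif. These are matches of letters and no binding was measured.

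Detection here means at least 1 TPM in the cell, TPM being a transcript share corrected for gene length. Gata2 was the most widely detected member, in 46 cells (10.04%, interval 7.45 to 13.2), followed by Foxn4 in 33 (7.21%, 5.01 to 9.97) and Vsx1 in 20 (4.37%, 2.69 to 6.66). Gata3 was detected in 18 cells (3.93%, 2.35 to 6.14), Tal1 in 15 (3.28%, 1.84 to 5.34), Phox2a in 10 (2.18%, 1.05 to 3.98), Sox14 in 9 (1.97%, 0.902 to 3.70) and Tbx20 in 2 (0.437%, 0.0529 to 1.57). The intervals of neighbours in this order overlap throughout. At least 1 member was found in 95 cells (20.7%, 17.1 to 24.7): 59 cells had 1, 19 had 2, 13 had 3, 3 had 4 and 1 had 5. The share depends on the bound: it was 25.3% at any value above 0, 16.4% at 5 TPM or more and 7.64% when a member had to rank among the 4000 highest genes of its cell.

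Columns fall into 2 sets by their names, and 55 columns of set 1 have a near copy in set 2 (correlation across genes 0.946 to 0.990). Counts over distinct cells take each such pair once. Kept cells had a median of 6742.5 genes above 0, and sequencing depth cannot be read from TPM. Over distinct cells the members were detected in 9 (Phox2a), 2 (Tbx20), 30 (Foxn4), 18 (Vsx1), 41 (Gata2), 18 (Gata3), 15 (Tal1) and 9 (Sox14) cells. Gata3 was found in 5 cells of set 1 and 13 of set 2, Tal1 in 5 and 10, Vsx1 in 7 and 13, Sox14 in 6 and 3, and the other members were split more evenly, apart from Tbx20, whose 2 cells were both in set 1. The near copies were taken as repeat measurements of 1 cell, an inference from their values. Over 440 comparisons of 1 member in 1 pair, 9 were detected in both columns, 4 in 1 column and the rest in neither, and losses shared by both columns of a pair would not show. Gata2 accounts for 3 of the 4, with 0 TPM in set 1 against 1.05 and 11.01 TPM in set 2 for 2 cells, and 13.5 TPM in set 1 against 0 in set 2 for the other one. The fourth was Tbx20, at 1.28 and 0.71 TPM on either side of the bound. Phox2a was seen at 83.6 and 78.9 TPM in the columns of 1 pair.

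Cells were sorted into marker states by lists that hold none of the members. A list counted as on when at least 50% of its markers were detected (6 of 12 for neural progenitors, 6 of 12 for neurons, 5 of 10 for endoderm). The progenitor state had the progenitor list alone on (30.8% of kept cells), the transition state had both neural lists on (30.6%, 140 cells), the neuron state had the neuron list alone on (10.3%, 47 cells), and the endoderm state had the endoderm list on (26.4%), while 9 cells had all lists off. These states are ranges of marker counts, and 37, 36, 11 and 19 cells of the 4 states lay within 1 marker of a cut. The progenitor state had Pax6 at a mean of 99.9 TPM and Hes5 at 97.2 TPM, the neuron state had Stmn2 at 696.4 TPM against 7.89 TPM in the progenitor state, and Gata4 had a mean of 59.3 TPM in the endoderm state against 0.0370 TPM in the progenitor state. Median gene numbers were 6381, 7417, 5785 and 6689 in the progenitor, transition, neuron and endoderm states. The transition state thus has the most genes per cell, and what part gene number plays in the shares below was not tested.

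Cells with any member made up a smaller share of the progenitor state than of the transition and neuron states. In the endoderm state, 9 of the 63 cells with both neural lists off had Gata2. Any member was found in 13 progenitor-state cells (9.22%, 5.0 to 15.3), 46 transition-state cells (32.9%, 25.2 to 41.3), 14 neuron-state cells (29.8%, 17.3 to 44.9) and 22 endoderm-state cells (18.2%, 11.8 to 26.2). Cells with 2 or more members numbered 0, 21, 10 and 5 in these states. No pair of members was detected together in any progenitor-state cell at this cut, whereas Foxn4 and Vsx1 shared 1 such cell when 8 of 12 markers were needed.

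**Figure D1:**
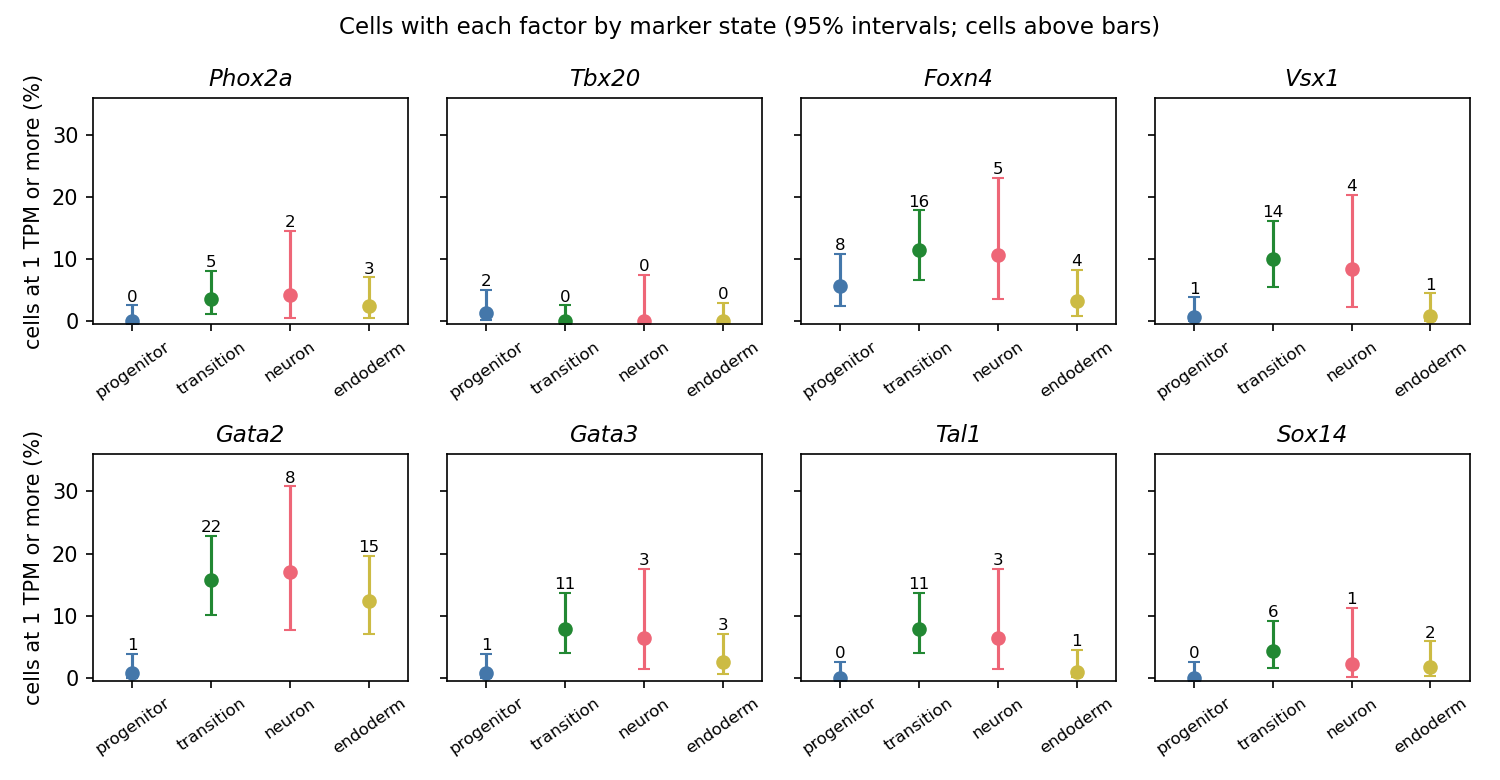
Share of cells (%, with 95% Clopper-Pearson intervals) in which each of the 8 factors was at 1 TPM or more, in the progenitor, transition, neuron and endoderm marker states, with the number of detected cells above each bar. Foxn4 has 8 cells in the progenitor state, whereas Gata2, Gata3 and Vsx1 have 1 each there and Phox2a, Tal1 and Sox14 have 0. With 4 of 12 markers as the cut, Foxn4 has 0 cells there and Vsx1 and Gata2 have 1 each, and with 8 of 12 these genes have 9, 5 and 4.

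Foxn4, the p2 progenitor factor, was detected in all 4 states, and its progenitor-state count depended on the cut. Its 8 progenitor-state cells had 4 or 5 neuron markers on, just under the cut of 6, where the median of the state was 3. When 4 of 12 markers put a list on, 0 progenitor-state cells had Foxn4, and when 8 of 12 were needed, 9 had it. It was detected in 8 progenitor-state cells (5.67%, 2.48 to 10.9), 16 transition-state cells (11.4%, 6.68 to 17.9), 5 neuron-state cells (10.6%, 3.55 to 23.1) and 4 endoderm-state cells (3.31%, 0.907 to 8.25). Detected levels had a lowest, median and highest value of 1.23, 8.58 and 25.5 TPM in the progenitor state, 2.47, 10.4 and 75.6 TPM in the transition state, and 8.80, 23.2 and 79.9 TPM in the neuron state. The ranges overlap, and the 4 values above 30 TPM all lie in the transition and neuron states. Mean TPM over all cells of a state, zeros included, was 4.04 in the neuron state against 0.656 in the progenitor state, a 5.47-fold difference with 0.1 TPM added to both means, and the 5 detected neuron-state cells carry that mean.

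Vsx1, the V2 precursor factor, was detected in 1 progenitor-state cell (27.9 TPM), 14 transition-state cells, 4 neuron-state cells and 1 endoderm-state cell (23.9 TPM). In the transition state it spanned 3.42 to 78.05 TPM with a median of 9.59 TPM, and the 4 neuron-state cells had 4.25, 15.3, 21.2 and 26.3 TPM. The single progenitor-state value thus lies inside the range of the other states. The mean was 1.43 TPM in the neuron state against 0.200 TPM in the progenitor state, a 5.11-fold difference that turned round when 4 of 12 markers sufficed to put a neural list on (log2 fold -2.06 in place of 2.35). At that cut Vsx1 was in 0 of 24 neuron-state cells and 1 of 71 progenitor-state cells, so the reversed value rests on 1 cell and on the 0.1 TPM added. Of the 4 neuron-state cells, 2 are a near-copy pair, so 3 are distinct.

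Gata2, a zinc finger factor of V2b neurons and of blood stem cells, was detected in 1 progenitor-state cell (0.709%, 0.0180 to 3.89; 10.5 TPM), 22 transition-state cells (15.7%, 10.1 to 22.8), 8 neuron-state cells (17.02%, 7.65 to 30.8) and 15 endoderm-state cells (12.4%, 7.11 to 19.6). Lowest, median and highest detected levels were 1.5, 11.4 and 59.5 TPM in the transition state, 1.17, 7.67 and 69.96 TPM in the neuron state and 1.03, 6.64 and 64.9 TPM in the endoderm state. The intervals of the other 3 states lie above that of the progenitor state. The mean was 3.12 TPM in the neuron state against 0.0784 TPM in the progenitor state, an 18.1-fold difference. In the endoderm state the mean was 1.62 TPM.

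Gata3, its paralog, was detected in 1 progenitor-state cell (2 TPM), 11 transition-state cells (1.54 to 72.9 TPM, median 23.2), 3 neuron-state cells (2.27, 7.04 and 82.6 TPM) and 3 endoderm-state cells (1.69, 8.08 and 16.6 TPM). The progenitor-state value is below all but 2 of the others. Its mean was 1.95 TPM in the neuron state against 0.0210 TPM in the progenitor state, a 17-fold difference in which the cell at 82.6 TPM holds most of the neuron-state sum. The library chemistry does not mark strand, and the noncoding gene 9230102O04Rik overlaps Gata3 over 4913 bases. It was detected in 11 cells, 9 of them with Gata3, and reads from the shared bases cannot be assigned to either gene. Noncoding genes with no values here also overlap Gata2 (4394 bases) and Tal1 (1689 bases), and the end of Inppl1 overlaps Phox2a (95 bases, 1 cell with both).

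Tal1, a helix-loop-helix factor of V2b neurons and of the blood lineage, was detected in 0 progenitor-state cells, 11 transition-state cells (1.83 to 26.7 TPM, median 6.48), 3 neuron-state cells (6.10, 9.79 and 18.7 TPM) and 1 endoderm-state cell (5.37 TPM). The count of 0 allows a progenitor-state share of up to 2.13% by the limit of 3 counts, and the upper bound of the exact interval is 2.58%. The share was 7.86% (3.99 to 13.6) in the transition state and 6.38% (1.34 to 17.5) in the neuron state. The mean was 0.735 TPM in the neuron state and Tal1 was listed at 0 in every progenitor-state cell.

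Sox14, a factor of V2a neurons, was detected in 0 progenitor-state cells, 6 transition-state cells (1.45 to 38.4 TPM, median 19.8), 1 neuron-state cell (42.3 TPM) and 2 endoderm-state cells (4.13 and 36.9 TPM). Every state with detected cells reached above 30 TPM in 1 of them. Detected Sox14 cells had a median of 7586 genes, against 6716 in cells without it.

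Phox2a, the visceral motor factor, was detected in 0 progenitor-state cells, 5 transition-state cells (2.81, 8.83, 19.6, 78.9 and 83.6 TPM), 2 neuron-state cells (81.7 and 159.4 TPM) and 3 endoderm-state cells (1.01, 2.39 and 5.04 TPM). The neuron-state values are high, the endoderm-state values are low, and those of the transition state span the gap, with its 78.9 and 83.6 TPM measured on 1 near-copy pair. The mean was 5.13 TPM in the neuron state and 0 in the progenitor state. Tbx20 was above 0 in 7 cells but reached 1 TPM in only 2, both in the progenitor state (1 and 1.28 TPM), so nothing can be said of its pattern.

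**Figure D2:**
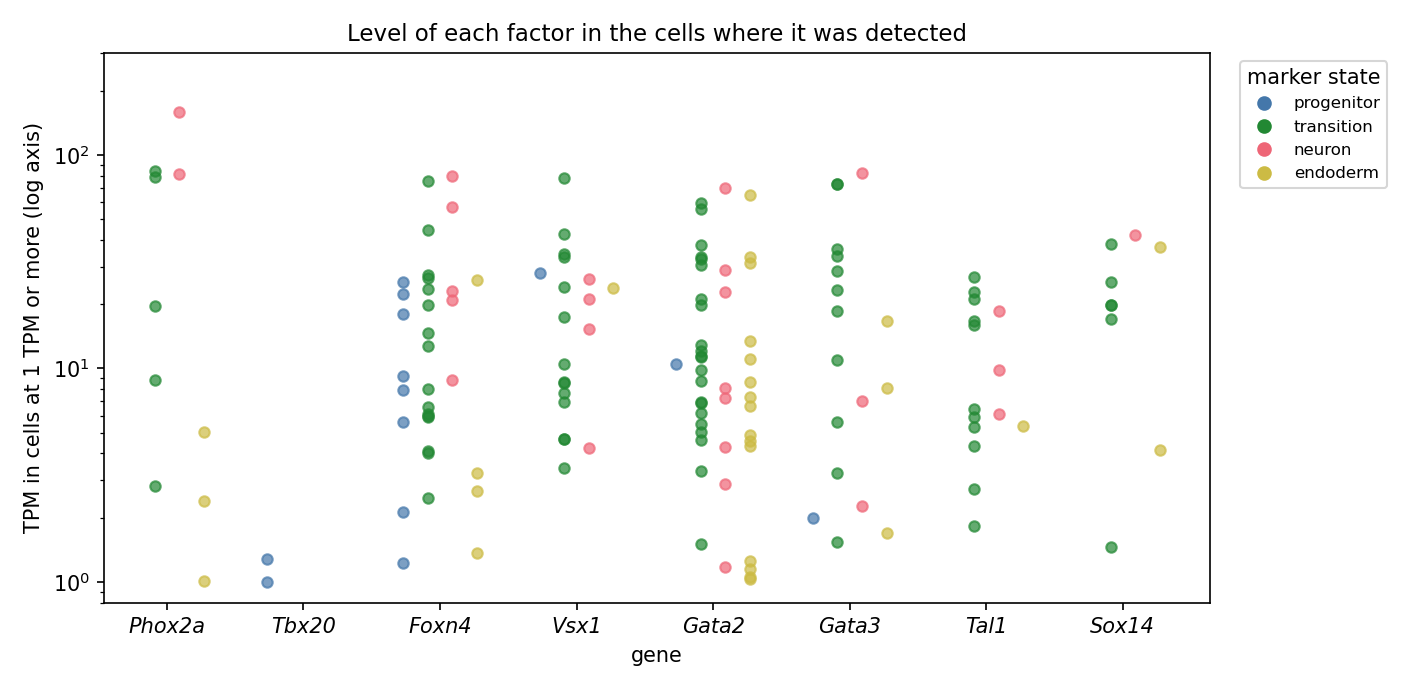
TPM (log axis) of each factor in the cells where it was at 1 TPM or more, 1 point a cell, coloured by marker state. Phox2a has 81.7 and 159.4 TPM in the neuron state and 1.01 to 5.04 TPM in the endoderm state, while the ranges of Foxn4, Gata2 and Gata3 overlap between states.

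Set against all genes, 6 members were detected in at least 10 cells and could be called, and mean TPM of all 6 (Phox2a, Foxn4, Vsx1, Gata2, Gata3, Tal1) was at least 2-fold higher in the neuron state than in the progenitor state, beside 19.8% of the 13756 genes that met the same filter. None was 2-fold lower, beside 17.4% of genes. For the 4 with some progenitor-state signal the log2 folds ran from 2.35 to 4.18, beside a median of 0.01 over all genes tested, and Phox2a and Tal1 were listed at 0 in that state. With differences of mean log2 values in place of folds of mean TPM, 0 members passed. On that scale a gene at 0 in most cells of both states can hardly pass, and Gata2, the most frequent, was in 17.02% of neuron-state cells. The share of all genes on that scale is not given here, so this count is not read further. A rare gene passes this filter through the state in which it is frequent, so the count adds nothing beyond the values above. All 6 also passed that fold in the transition state against the progenitor state, beside 10.4% of genes, with means of 2.86 against 0.0784 TPM for Gata2 and 2.04 against 0.200 TPM for Vsx1, and 0 were 2-fold lower (4.47% of genes). In the endoderm state against the progenitor state, Gata2 and Gata3 passed (9.63-fold and 2.68-fold), beside 19.9% of genes, while Foxn4 was at 0.288 against 0.656 TPM and Vsx1 at 0.200 TPM in both. In that comparison 0 members were 2-fold lower, beside 16.9% of genes.

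Co-detection was most frequent among Gata2, Gata3 and Tal1 and between Foxn4 and Vsx1. Gata2 was detected in 15 of 18 Gata3 cells (83.3%, 58.6 to 96.4) against 31 cells without Gata3 (7.05%, 4.84 to 9.85), and the 15 cells are 32.6% of Gata2 cells. It was detected in 14 of 15 Tal1 cells (93.3%, 68.1 to 99.8) against 32 cells without Tal1 (7.22%, 4.99 to 10.04), and these are 30.4% of Gata2 cells. Gata3 and Tal1 shared 11 cells, 61.1% of Gata3 cells and 73.3% of Tal1 cells, and all 11 also had Gata2. For scale, the detected share was at least 2 times as high in cells with the member as in cells without it for 8.35% of genes with Gata3, 9.11% with Tal1 and 5.40% with Gata2.

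The cells with Gata2, Gata3 and Tal1 together were 9 transition-state cells, 1 neuron-state cell and 1 endoderm-state cell that also had both neural lists on. In set 1 all 5 Gata3 cells and all 5 Tal1 cells were the same 5 cells with all 3 genes, and set 2 held the other 6. Of the 28 cells with Gata2 alone among the 3, 13 were in the endoderm state, 11 in the transition state, 3 in the neuron state and 1 in the progenitor state. Relative levels differed widely between cells: a neuron-state cell had 7.28 TPM of Gata2, 82.6 of Gata3 and 18.7 of Tal1, whereas a transition-state cell had 59.5, 1.54 and 22.7 TPM of the same genes. Within the transition state alone, Gata2 was found in 10 of 11 Tal1 cells (90.9%) against 12 cells without Tal1 (9.30%), and Tal1 in 9 of 11 Gata3 cells (81.8%) against 2 without Gata3 (1.55%), beside 6.67% and 5.93% of genes at 2 times the share. With the endoderm list off, Gata2 was found in 13 of 14 Tal1 cells (92.9%) against 5.57% of others and in 13 of 15 Gata3 cells (86.7%) against 5.59%, where 10.2% and 8.66% of genes passed.

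Foxn4 was detected in 12 of 20 Vsx1 cells (60%, 36.1 to 80.9) against 21 cells without Vsx1 (4.79%, 2.99 to 7.24), and the 12 are 36.4% of Foxn4 cells. For Vsx1, 6.59% of genes passed the ratio of 2, and for Foxn4 3.80%. The shared cells were 7 of the transition state, 4 of the neuron state (3 distinct) and 1 of the endoderm state, with 3 of 7 Vsx1 cells in set 1 and 9 of 13 in set 2. The 7 transition-state cells all lay in set 2, where set 1 had 0 of its 3 Vsx1 cells with Foxn4. In the neuron state all 4 Vsx1 cells had Foxn4. When the endoderm list was off, Foxn4 was found in 11 of 19 Vsx1 cells (57.9%) against 5.66% of others, beside 8.44% of genes, and Vsx1 in 11 of 29 Foxn4 cells (37.9%) against 2.60%, beside 4.67% of genes.

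Across these groups, Gata2 was found in 9 Foxn4 cells and 6 Vsx1 cells, whereas Foxn4 shared 1 cell with Gata3 and 1 with Tal1, the same cell, which had 5 of the members (2.47 TPM of Foxn4, 7.70 of Vsx1, 21.1 of Gata2, 33.6 of Gata3 and 5.30 of Tal1). Vsx1 shared 3 cells with Gata3 and 2 with Tal1. Gata2 was thus in 30% of Vsx1 cells against 9.13% of others, Gata3 in 15% against 3.42% and Tal1 in 10% against 2.97%. These 3 shares pass the ratio of 2, beside 6.59% of genes. Sox14 shared 4 of its 9 cells with Gata2, 2 with Foxn4, 1 each with Gata3 and Tal1, and 0 with Vsx1. Phox2a shared 2 of its 10 cells with Foxn4, 1 with Vsx1 and 1 with Gata2, and 0 with Gata3, Tal1 and Sox14. Of the pairs, 8 were found in at least 3 cells.

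**Figure D3:**
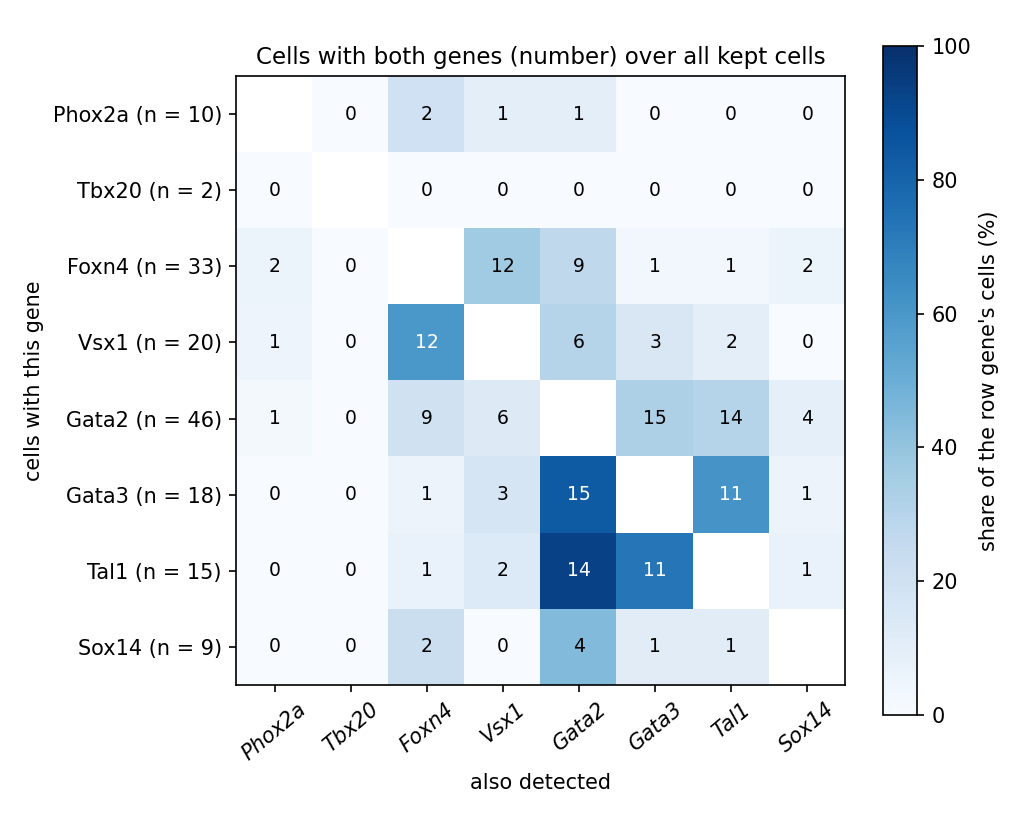
Number of cells with both genes of a pair at 1 TPM or more among kept cells, with shading for the share (%) of the row gene's cells. The dark block is Gata2 in Gata3 and Tal1 cells (15 and 14 cells) and Gata3 with Tal1 (11 cells). Foxn4 and Vsx1 share 12 cells, and Gata2 is also in 6 of the 20 Vsx1 cells.

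**Figure D4:**
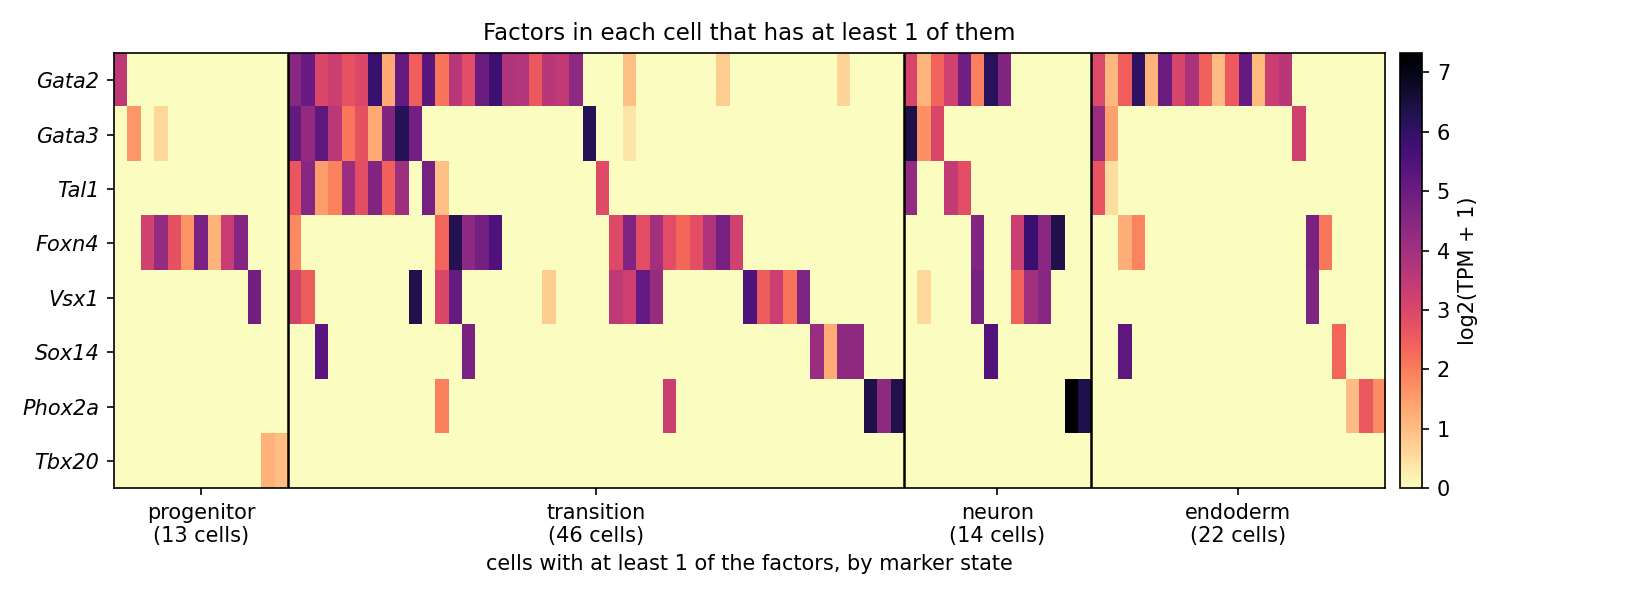
Level of each factor as log2(TPM + 1) in the 95 cells with at least 1 of them, 1 column a cell, ordered by marker state and then by which factors are detected. Progenitor-state cells (13) have 1 factor each, mostly Foxn4, and the cells with Gata2, Gata3 and Tal1 together lie mainly among the 46 transition-state cells.

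Correlation of log2(TPM + 1) over distinct cells is given as a description only, since the points share cells, column sets and many zeros. Among 13582 genes, Tal1 was the gene most like Gata2 (r = 0.57), followed by Gata3 (0.41) and 9230102O04Rik (0.37). For Tal1 the order was Gata3 (0.60), Gata2 (0.57) and 9230102O04Rik (0.53). For Foxn4 the order was Hes2 (0.48), Vsx1 (0.43) and Scn1a (0.36), all short of the r of 0.5 taken as alike. Vsx1 had Mybl1 (0.45), Foxn4 (0.43) and Hes2 (0.40), and Gata3 had 9230102O04Rik (0.65), Tal1 (0.60) and Gata2 (0.41). Sox14, in 9 cells, had Nell1 (0.62) and Slc17a7 (0.48), and Phox2a, in 9 distinct cells, had Cbln1 (0.47), Npff (0.43) and Peli3 (0.40).

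Some genes of the p2 domain were more frequent in Foxn4 and Vsx1 cells, and others were not. Of the 16 genes in a list of p2 progenitor and V2 genes, 5 had a detected share at least 2 times as high in Foxn4 cells and 6 in Vsx1 cells as in cells without the gene (3.80% and 6.59% of all genes). Irx3 did not pass in Vsx1 cells, found in 13 of 20 (65%) against 64.8% of others. Lmo4 was found in 9 of 20 Vsx1 cells, a lower share than in the others. Lhx4 and Shox2 were each found in 0 of 20 Vsx1 cells, against 7.99% and 3.2% of others. With 20 cells, an exact interval around 0 reaches 16.8%. Nkx6-1, a homeodomain factor of ventral progenitors, was detected in 18 of 20 Vsx1 cells (90%, 68.3 to 98.8) against 94 others (21.5%, 17.7 to 25.6), and in 21 of 33 Foxn4 cells (63.6%) against 21.4%. Lhx3, a LIM factor of V2 neurons and somatic motor neurons, was detected in 12 of 20 Vsx1 cells (60%) against 12.6% and in 18 of 33 Foxn4 cells (54.5%) against 11.5%. Dll4, a Notch ligand, was found in 5 of 33 Foxn4 cells (15.2%, 5.11 to 31.9) against 7 others (1.65%, 0.665 to 3.36).

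Mfng, which modifies Notch, also passed, in 72.7% of Foxn4 cells against 34.8% and in 80% of Vsx1 cells against 35.6%. Within the transition state Nkx6-1 was found in 13 of 16 Foxn4 cells (81.3%) against 27.4% without Foxn4, beside 5.23% of genes that passed, and in 13 of 14 Vsx1 cells (92.9%) against 26.98% without Vsx1, beside 6.43%. The share of Mfng in that state was 87.5% with Foxn4 and 50% without, short of 2 times. Cells with Foxn4 or Vsx1 were also rich in transcripts of 8 genes of the G2 and M phases: their summed level had a median of 1536 TPM in Foxn4 cells and 1310 TPM in Vsx1 cells, beside 1166 TPM in the progenitor state, 907.8 in the transition state and 10.2 in the neuron state. Its part in the co-detection was not tested.

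Several V2a genes were more frequent in Sox14 cells. Lhx4 was detected in 7 of 9 Sox14 cells (77.8%, 40 to 97.2) against 28 others (6.24%, 4.18 to 8.89). Lhx3 was found in 6 of 9 against 13.6% and Shox2, a factor of a subset of V2a neurons, in 4 of 9 against 2.23%. Slc17a7, which encodes a vesicular glutamate transporter, was found in 5 of 9 (55.6%) against 8 others (1.78%). Of the 16 p2 and V2 genes, 7 passed the ratio of 2 in Sox14 cells, beside 12.7% of all genes, in a group of 9 cells. Of the 12 neuron-state markers 5 also passed, Mapt among them (8 of 9 against 23.8%), and their part was not tested. Stmn2, Stmn3, Elavl3, Elavl4 and Gap43 were in most cells without Sox14 and could not reach the ratio. The summed G2 and M phase level had a median of 171.2 TPM in Sox14 cells, against 1536 TPM in Foxn4 cells. Genes outside the V2a set were also present: Gad2, which encodes an enzyme that makes GABA, was found in 4 of 9 Sox14 cells against 15.8%. Gad1, its paralog, was found in 2 of 9 against 9.58% and Th, which encodes tyrosine hydroxylase, in 3 of 9 against 9.80%. Together with Slc17a6 and Slc17a7 these are the 5 of 6 callable transmitter genes that passed the ratio of 2.

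Of 6 transmitter genes that could be called, 4 passed the ratio of 2 in Gata3 cells and in Tal1 cells, beside 8.35% and 9.11% of all genes: Gad1, Gad2 and Slc6a5, which serve inhibitory transmission, and Slc17a7, which serves excitatory transmission and was found in 2 of 18 Gata3 cells against 2.50% and in 2 of 15 Tal1 cells against 2.48%. Gad2 was detected in 12 of 15 Tal1 cells (80%, 51.9 to 95.7) against 63 others (14.2%, 11.1 to 17.8) and in 11 of 18 Gata3 cells (61.1%, 35.7 to 82.7) against 64 others (14.5%, 11.4 to 18.2). Gad1, its paralog, was found in 6 of 15 Tal1 cells against 8.80% and in 7 of 18 Gata3 cells against 8.64%. Slc6a5, which encodes a glycine transporter, was found in 7 of 15 against 9.48% and in 7 of 18 against 9.55%. Slc17a6, which encodes a vesicular glutamate transporter, was found in 0 of 15 Tal1 cells and 0 of 18 Gata3 cells, but it was detected in 10 cells in all.

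Neuron markers moved with this contrast. In Tal1 cells 7 of the 12 neuron-state markers and in Gata3 cells 6 of 12 passed the ratio of 2, beside 9.11% and 8.35% of all genes. Stmn2, Stmn3, Elavl3, Elavl4 and Gap43 were in most cells without these members and could not reach that ratio. In Tal1 cells every other marker of the list passed. Within the transition state Gad2 was found in 8 of 11 Tal1 cells (72.7%) against 24.8% of others and in 7 of 11 Gata3 cells (63.6%) against 25.6%. For Gata2 the same comparison gave 10 of 22 cells (45.5%) against 25.4%, short of the ratio of 2 that 5.37% of genes reached, while with the endoderm list off it gave 16 of 31 cells (51.6%) against 16.3%, beside 7.59% of genes. The LIM factors Lhx1 and Lhx5, both from a list of 16 genes of other interneuron domains, were each detected in 12 of 15 Tal1 cells, against 37.5% and 25.7% of others. Of the 12 callable genes of that list 4 passed the ratio of 2 in Tal1 cells, beside 9.11% of all genes. A further 4 genes of the list were found in 0 Tal1 cells.

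Among genes that encode partners of GATA and TAL1 proteins, 2 of the 9 that could be called passed the ratio of 2 in each of Tal1, Gata3 and Gata2 cells. The shares of all genes were 9.11%, 8.35% and 5.40%. Ldb1, Lmo1, Tcf3, Tcf4 and Tcf12 were found in most cells without these members and so could not reach that ratio. Zfpm1, which encodes a GATA cofactor, passed in Tal1 cells (8 of 15 against 26.2%) and Gata2 cells (23 of 46 against 24.5%), and Nhlh1, a neuronal helix-loop-helix gene, in Tal1 cells (10 of 15 against 30.9%) and Gata3 cells (12 of 18 against 30.7%). Lmo2, which bridges the complex in blood cells, passed in Gata3 cells (4 of 18 against 7.95%) and Gata2 cells (8 of 46 against 7.52%) but was found in 2 of 15 Tal1 cells against 8.35%. Zfpm2, the paralog of Zfpm1, was too rare for the call with 8 cells in all, of which 5 were Tal1 cells, 5 were Gata3 cells and 6 were Gata2 cells. The adaptor gene Ldb1 was found in 15 of 15 Tal1 cells but also in 79.2% of other cells.

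**Figure D5:**
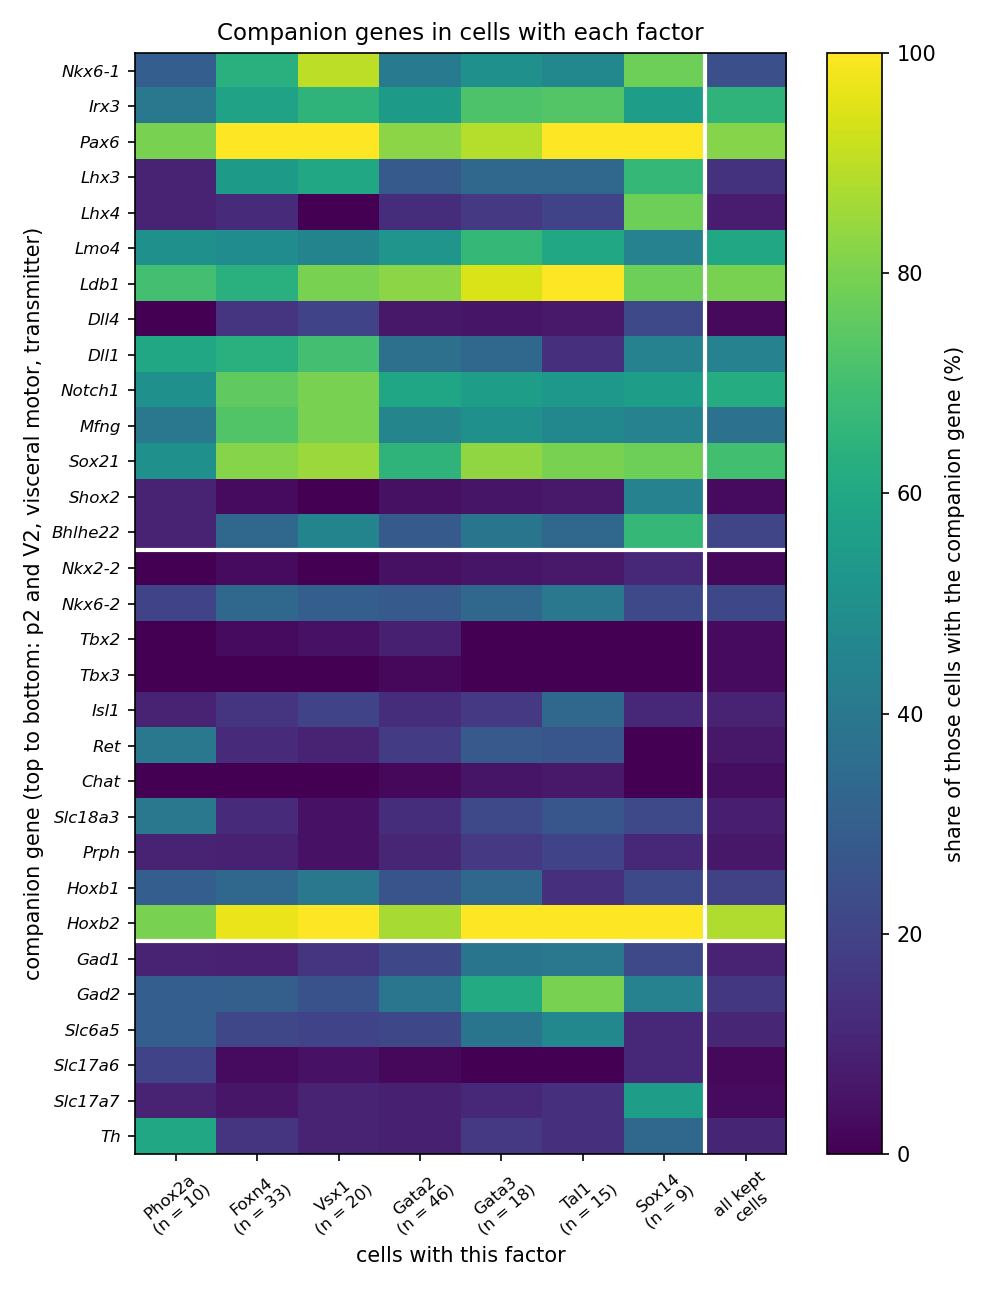
Share (%) of the cells with each factor that also had each companion gene at 1 TPM or more, with all kept cells in the last column. The genes are from the p2 and V2, visceral motor and transmitter lists and were detected in at least 10 cells. Lhx4, Shox2 and Slc17a7 are highest in Sox14 cells, Gad2 in Tal1 cells (80%), Nkx6-1 in Vsx1 cells (90%) and Th in Phox2a cells (60%).

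Blood genes differed between Gata2 cells with the endoderm list off and on. Of a list of 12 blood and endothelial markers, 0 of the 4 that could be called passed the ratio of 2 with Gata2, Gata3 or Tal1. Their summed level had a median of 0 TPM in cells with all 3 genes (0 to 48.2 TPM), in Gata2 cells with the endoderm list off (0 to 48.2 TPM) and in the progenitor state (0 to 32.3 TPM). In the 15 Gata2 cells with the endoderm list on it had a median of 5.98 TPM (0 to 28.6), where all endoderm-state cells had a median of 2.30 TPM. Gata1, a defining factor of red cells, and the embryonic globin gene Hbb-bh1 were too rare to tell, with 2 and 0 cells in all and 0 among the 46 Gata2 cells. Of 8 markers of trophoblast, another setting in which Gata2 and Gata3 act, 0 were detected in any Gata3 cell, while 4 were detected in Gata2 cells, with a summed level of 0 to 44.1 TPM and a median of 0. Of the 3 that could be called, Krt7 and Plet1 passed the ratio of 2 in Gata2 cells, each in 4 of 46, against 1.46% and 2.67% of others, beside 5.40% of genes. Plet1 lay mainly in the endoderm state: with that list off it was in 0 of 19 Vsx1 cells and 0.314% of cells without Vsx1. The part of that state in the ratio was not tested.

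Gata2 was also compared within the endoderm state. Of its 15 cells there, 9 had both neural lists off (of 63 such cells) and 6 had a neural list on (of 58). The endoderm factors of the list define the state, and Cubn, one of them, was found in 10 of 15 cells with Gata2 against 59.4% of cells without. Runx1, a blood factor in the list above, was found in 11 of 15 (73.3%) against 43.4%, short of the ratio of 2 that 7.13% of genes reached there, and in 0 of 31 Gata2 cells with the endoderm list off. With that list off Runx1 was rare in general, in 0 of 19 Vsx1 cells and 1.26% of cells without Vsx1. Gad2 was found in 2 of 15. Over distinct cells 11 endoderm-state cells had Gata2.

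Foxn4, Vsx1, Gata3, Tal1 and Sox14 in the endoderm state were found almost only in cells that also had a neural list on: 4 of 4 Foxn4 cells, 1 of 1 Vsx1, 2 of 3 Gata3, 1 of 1 Tal1 and 2 of 2 Sox14. In that state 58 cells had a neural list on and 63 had both off. The counts share cells: 1 cell had Foxn4 and Vsx1, 1 had Foxn4 and Sox14, and 1 had Gata3 and Tal1. Of the 3 Phox2a cells, 1 had a neural list on. Such cells carry markers of both lineages, doublets were not called, and their part in these counts was not tested.

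Most visceral motor genes did not pass the ratio of 2 in Phox2a cells, and these cells are named by the gene alone. Chat, which encodes the enzyme that makes acetylcholine, was found in 0 of 10 against 3.79%, Isl1, a motor neuron factor, in 1 of 10 against 9.60% and Nkx2-2, a progenitor factor of visceral motor neurons, in 0 of 10 against 2.23%. With 10 cells, an exact interval around 0 reaches 30.8%. The 15-gene visceral motor list had 12 genes that could be called, of which 2 passed the ratio of 2, beside 10.9% of all genes. They were Slc18a3, which encodes the vesicular acetylcholine transporter (4 of 10 against 7.81%), and Ret, a receptor gene (4 of 10 against 5.80%).

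Some genes outside that list were more frequent in Phox2a cells. Th, which encodes tyrosine hydroxylase of catecholamine synthesis, was detected in 6 of 10 (60%, 26.2 to 87.8; mean 57.3 TPM) against 41 others (9.15%, 6.65 to 12.2; mean 10.3 TPM). Tlx3, a factor of several hindbrain and dorsal spinal neuron classes, was found in 5 of 10 (50%, 18.7 to 81.3) against 25 others (5.58%, 3.64 to 8.13). Of 6 callable transmitter genes 4 passed the ratio of 2, and of 12 callable genes of other interneuron domains 4, beside 10.9% of all genes. Besides Th and Tlx3 these were Slc17a6 (2 of 10), Slc17a7 (1 of 10), Slc6a5, Pou4f1 and Lbx1 (3 of 10 each) and Evx1 (1 of 10). The 10 cells include 9 distinct ones. Dbh, which acts after Th in making noradrenaline, was found in 0 of 10 and in 8 cells in all, and the neural crest gene Sox10 in 0 of 10. Of the 9 neural crest and sympathoadrenal markers, 5 could be called and 2 passed the ratio of 2, and their summed level ran from 0 to 345.4 TPM with a median of 20.8 in Phox2a cells. In Phox2a cells 5 of the 12 neuron-state markers also passed that ratio, beside 10.9% of all genes. Stmn2, Stmn3, Elavl3, Elavl4 and Gap43 were in most cells without Phox2a and could not reach it.

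The 2 Tbx20 cells had summed levels of 8 cardiac markers of 51.6 and 75.5 TPM, where the median of all cells was 0 and the highest cell reached 1112 TPM. Neither had another member.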

How the data were processed

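Values are those the authors deposited for single cells. The submitters' processing notes name STAR, RSEM and build mm10, without versions. The deposited table states no unit. Its values were taken as TPM, which the authors' RSEM step yields, from decimals whose column sums are 54.2% to 95.1% of the TPM total. Depth is unknown. The sources used here give no annotation or filter.

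Kept cells had 2000 or more genes above 0 and a mitochondrial share of 20% or less. Doublets were not called, since counts are needed for that. Column names do not single out samples, which share 1 label. Near copies are column pairs with a correlation of at least 0.93. Folds are ratios of mean TPM with 0.1 TPM added, called at 2-fold for genes detected in at least 10 cells. Detection used 1 TPM. Companion genes come from lists, and named genes are those in at least 10% of the cells with a member, those whose absence is stated, and the 3 most correlated genes. Some of these genes are not reported here, although counts over lists include them. Members and lists were chosen with earlier results of these data known. Python 3.11.15 and numpy 2.4.6 were used, and alternatives varied detection, cells, cuts and scaling. Known folds in widely detected genes and a planted near copy were put into the real values and read back. Marker states, co-detection and companion ratios were not tested in this way. The comparisons of the transition and endoderm states, of rarer members and within states were added after the data were seen. Promoter letters are from RefSeq, and 20780 of 21973 gene names matched its GRCm38.p6 table.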

Additional observations from a re-analysis of the deposited data

How the results depend on the processing

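No paired analysis was possible because there is 1 group. Detection among the 4000 highest genes of a cell changed the most: 2 members were then found in at least 10 cells (6 as reported), 2 were 2-fold higher in the neuron than in the progenitor state (6 as reported), 1 pair was found in at least 3 cells (8 as reported) and 0 in the transition state alone, and any member was found in 7.64% of cells. Under it Gata2 was found in 66.7% of Tal1 cells (2 of 3) and 16.7% of Gata3 cells (1 of 6), and Foxn4 in 33.3% of Vsx1 cells (2 of 6). At any value above 0 and at 5 TPM, any member was found in 25.3% and 16.4% of cells, and 5 TPM left 3 pairs in at least 3 transition-state cells. With column set 1 alone, 2 members were in at least 10 cells, 2 were 2-fold higher, 3 pairs were in at least 3 transition-state cells, and Gata2 was found in 100% of Tal1 cells and 100% of Gata3 cells (5 of 5 each). With differences of mean log2 values 0 members passed the fold, which a gene at 0 in most cells can hardly reach on that scale. When 4 of 12 neural markers put a list on, 1 member was 2-fold lower in the neuron state, Vsx1, at a log2 fold of -2.06. The cause of these changes was not tested beyond the smaller numbers of detected cells given. Leaving out repeated columns, changing the cell filter or dropping the top 5% of cells by gene number kept all 9 of these summary values within the bounds used. The precision is limited by the 2 to 46 cells per member and by missed detection, and sequencing depth is unknown.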
